A study of Dicentrarchus labrax with 8 samples.

Results

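The genes described here are pcna, chaf1b, rbbp4 and uhrf2, 4 genes of DNA replication and chromatin assembly, measured in testes of the European sea bass (Dicentrarchus labrax). On the array pcna was found by its contig, and the other genes by the targets that stand beside their symbols in the study's gene list. This gave 6 of the 11705 targets on the array and 18 of its 24200 probes. The 4 genes were picked with their stage difference on these same arrays known, so the stage values below are a description and carry no test. The study set testes at stage II, whose germ cells have begun to multiply into type B spermatogonia and may include early spermatocytes, against immature testes at stage I, whose germ cells are type A spermatogonia. All fish were males of 1 reared cohort without any treatment, sampled around normal puberty after early-maturing males had been removed. Each stage had 3 pools, and each pool combined RNA of several males, so that differences between single fish were not seen. Each pool was labelled with the Cy3 dye and hybridised to a custom oligonucleotide array, and to compare the plates, pool 3 of either stage was run on plate 36 as well as on plate 37, for a total of 8 arrays.

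When a cell copies its genome, the new DNA has to be packed into nucleosomes at once. In vertebrates Pcna, the sliding clamp of the replication fork, holds the DNA polymerase on its template and is also the landing platform for chromatin assembly factor 1. That factor places new histones behind the fork, and chaf1b and rbbp4 encode subunits of it. In mammals Rbbp4 is shared with histone deacetylase and Polycomb complexes. The Uhrf proteins of mammals read methylated DNA and histone tails, and Uhrf1 brings the maintenance DNA methyltransferase to newly copied DNA. In fish testis Pcna is widely used to mark dividing spermatogonia.

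The sources used here hold a sequence for pcna only, the primer pair that the study designed for PCR of this transcript. No probe or contig sequence was available, so whether the primers match the array's pcna contig could not be checked. Each primer has 20 bases and is written 5′ to 3′ in lower case with no part set off, and the forward primer holds 11 and the reverse primer 10 bases that are G or C.
pcna forward primer: ccaaggacggagtcaagttc
pcna reverse primer: ctggacgggttcattcatct

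For each array a level is the log2 intensity of a probe relative to the 75th percentile of all spots on that array, averaged over the probes of a gene. Probes bind their targets with unlike strength, so levels were compared between pools and not between genes. The 75th percentile lay at an intensity of 3245 to 4402 on the stage II arrays and of 2559 to 2994 on the stage I arrays. The share of spots that stood well above background was 60.2% (pool 1) to 82.9% at stage II and 75.8% to 86.7% at stage I, and no spot was saturated. After the filter on dim probes, 9019 of 11687 genes or single targets could be compared, and the median of all of them differed by −0.14 between stage II and stage I. By limma with Benjamini-Hochberg adjustment, 733 of the 9019 (8.13%) passed an adjusted p of 0.01 with a fold change over 2, of which 155 (1.72%) were higher and 578 (6.41%) lower at stage II. This split depended on the scaling, with 207 higher and 328 lower after quantile normalization, 260 and 428 after scaling to the median, and 729 and 77 in the deposited values without scaling. The 3 pools of each stage were treated as independent samples and their number limits the precision. In whole testis, more cells of a type and more RNA per cell cannot be told apart.

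The pcna transcript was higher in every stage II pool than in any stage I pool. Its level was 3.65, 3.29 and 3.08 in pools 1, 2 and 3 of stage II, against 1.70, 1.78 and 2.03 in pools 1, 2 and 3 of stage I. The stages did not overlap, and the closest pair of pools was still 1.06 apart. The mean was 3.34 ± 0.29 at stage II and 1.84 ± 0.17 at stage I (SD, n = 3 pools each), a difference of 1.51 or 2.84-fold. In intensity, the stage II arrays lay between 29377 and 43148 and the stage I arrays between 8809 and 12262, so pcna was read far above background throughout. Its 3 probes, at 2 spots each, gave differences of 1.44, 1.47 and 1.61, a range of 0.18 that was 0.40 after normexp. This is a model-based background correction, which started here from the median signal and local background of each spot. It was run with an added offset of 50.

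The uhrf2 target showed the widest separation of the 4 genes. Its level was 1.20, 0.98 and 0.76 in pools 1, 2 and 3 of stage II, against −1.05, −1.21 and −0.97 in the same-numbered pools of stage I. All stage II pools thus lay above the 75th percentile of their arrays and all stage I pools below it. The mean was 0.98 ± 0.22 at stage II and −1.07 ± 0.12 at stage I (SD, n = 3 pools each), which is 2.06 on the log2 scale or 4.16-fold. Its 3 probes differed by 2.01 to 2.08, a range of 0.07. The study's gene list gives this target the symbol uhrf2 but describes it as the ring finger protein numbered 1, so which of the Uhrf paralogues it stands for was not settled.

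The subunit genes chaf1b and rbbp4 of chromatin assembly factor 1 were higher at stage II as well. For chaf1b, which encodes the middle-sized subunit, the level was −3.50, −3.79 and −3.79 in pools 1, 2 and 3 of stage II, against −5.09, −5.42 and −4.89 in pools 1, 2 and 3 of stage I. The mean was −3.69 ± 0.17 at stage II and −5.13 ± 0.27 at stage I (SD, n = 3 pools each), a difference of 1.44 or 2.71-fold. The pools did not overlap, but this was a dim gene, with intensities of 254.8 to 317.7 on the stage II arrays and of 63.8 to 118.7 on the stage I arrays. The dimmest spot counted as well above background had an intensity of 51.9 to 273.1 on the stage II arrays and of 39.3 to 89.1 on the stage I arrays, and chaf1b stood differently to it on each array. Its mean intensity was below this limit for pool 2 of stage I (63.8, limit 89.1) and for pool 3 of stage I on plate 36 (73.4, limit 85.0), and above it for pool 1 of stage I (79.9, limit 61.5) and for pool 3 of stage I on plate 37 (118.7, limit 39.3). At stage II, pool 1 was just above it (287.3, limit 273.1).

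The differences given by the 3 chaf1b probes spanned 0.73, against 0.18 for pcna and 0.07 for uhrf2, an order that did not hold after normexp, with 0.25 for chaf1b, 0.40 for pcna and 0.25 for uhrf2. By the rule that 1 of the 2 spots of a probe was enough, each of the 3 was well above background on 4 of 4 stage II arrays. On the stage I arrays, the probe that was well above background on 4 of 4 gave a difference of 1.05, the probe that was so on 3 gave 1.50, and the probe that was so on 1 gave 1.77. The largest gap between duplicate spots of a chaf1b probe was 1.41 on the log2 scale, against 0.31 for pcna and 0.15 for uhrf2. The size of the chaf1b difference also moved with the background correction, as it was 0.32 after normexp. Its direction was the same under every setting that was run.

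The symbol rbbp4 stands for 3 targets, of which 2 contigs were measured and gave differences of unlike size in the main analysis. Averaged over the 6 of its 9 probes that passed the filter, its level was −0.69, −0.92 and −0.96 in pools 1, 2 and 3 of stage II, against −2.38, −2.36 and −2.03 in pools 1, 2 and 3 of stage I. The mean was −0.86 ± 0.14 at stage II and −2.26 ± 0.19 at stage I (SD, n = 3 pools each), a difference of 1.40 or 2.64-fold with no overlap between the stages. After normexp this difference was 1.00.

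The contig SeabassC-CL570Contig1 gave the smaller rbbp4 difference. Its level was 0.33, 0.15 and 0.20 in pools 1, 2 and 3 of stage II, against −0.84, −0.90 and −0.59 in pools 1, 2 and 3 of stage I, which is 1.00 or 2.01-fold, and its 3 probes gave 0.93 to 1.07. The contig SeabassC-CL3534Contig1 gave the larger one. Its level was −1.71, −1.99 and −2.11 in pools 1, 2 and 3 of stage II, against −3.91, −3.82 and −3.48 in pools 1, 2 and 3 of stage I, which is 1.80 or 3.48-fold, and its 3 probes gave 1.61 to 1.93. The difference of SeabassC-CL3534Contig1 exceeded that of SeabassC-CL570Contig1 by 0.80 on the log2 scale, and by 0.97 after quantile normalization, but by 0.047 after normexp.

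The level of SeabassC-CL3534Contig1 minus that of SeabassC-CL570Contig1, which cancels the scaling of each array, was −2.04, −2.14 and −2.31 in the stage II pools, against −3.07, −2.92 and −2.89 in the stage I pools. All stage II pools were thus above all stage I pools in this ratio. After normexp the ratio was −1.76, −2.05 and −2.09 in the stage II pools, against −2.48, −2.27 and −1.29 in the stage I pools, so that the stages overlapped, and unequal change of the contigs depended on the background correction. Whether they are transcripts of 1 gene or of paralogues is not given in the sources used here. The remaining target, cDN26P0004K18.F.ab1, was not measured. Of its 3 probes, 0 passed the filter, and only 1 was well above background on any array, a stage II array. Its intensities were 11.7 to 58.4 on the stage II arrays and 9.26 to 18.8 on the stage I arrays, and no fold change is given for it.

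**Figure D1:**
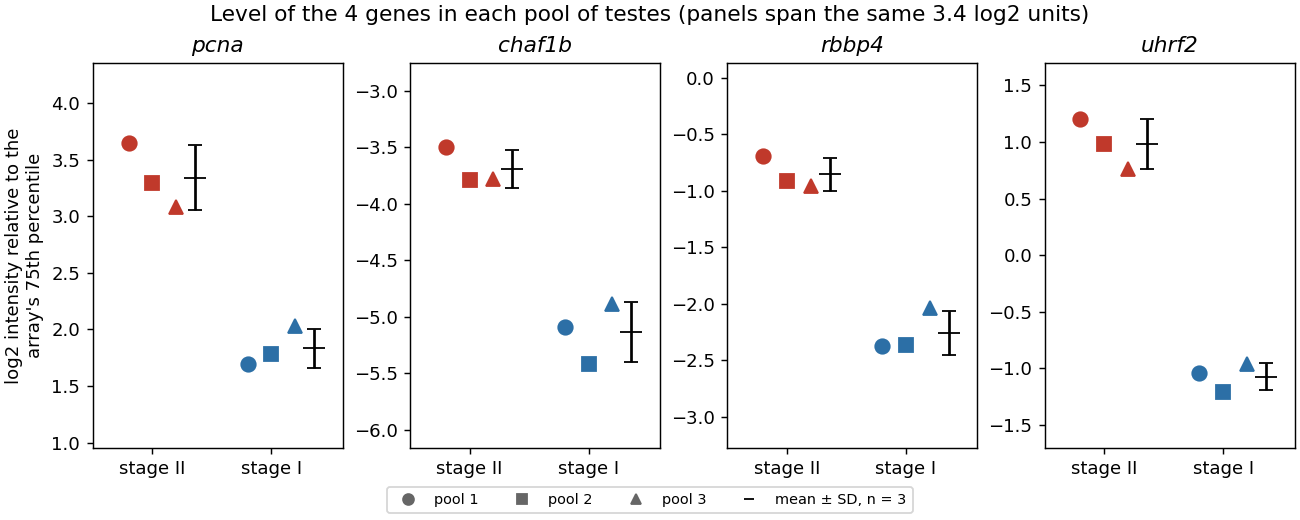
Level of pcna, chaf1b, rbbp4 and uhrf2 in each pool, on the log2 scale set to each array's 75th percentile (vertical axis), with stage II left of stage I, a symbol for each pool number and bars for the mean ± SD of 3 pools. In each of the 4 panels the 3 stage II pools lie above the 3 stage I pools, from 1.06 apart at the closest for pcna to 1.73 for uhrf2.

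Set against the whole array, the 4 genes stood among the largest rises, as their choice implies. They ranked 57 (pcna), 64 (chaf1b), 74 (rbbp4) and 15 (uhrf2) of 9019 by the difference of stage II over stage I. The rank of chaf1b rests in part on probes that were not well above background on every stage I array, and the probe that was gave 1.05. Relative to the median of all targets, which was itself −0.14, they were higher at stage II by 1.64 for pcna, 1.58 for chaf1b, 1.54 for rbbp4 and 2.19 for uhrf2. All 3 stage II pools lay above all 3 stage I pools for 2019 targets (22.4%), and a fold change over 2 towards stage II was reached by 177 (1.96%). The 15 probes of the 4 genes that passed the filter were each higher at stage II in 9 of 9 pairs of pools, as the choice of the genes implies. Their mean differences were 0.93 to 2.08, and the closest pair of pools for any of these probes was 0.68 apart. Of these probes, 2 of chaf1b passed the filter through stage II alone, and the rbbp4 probes that failed it are not counted.

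**Figure D2:**
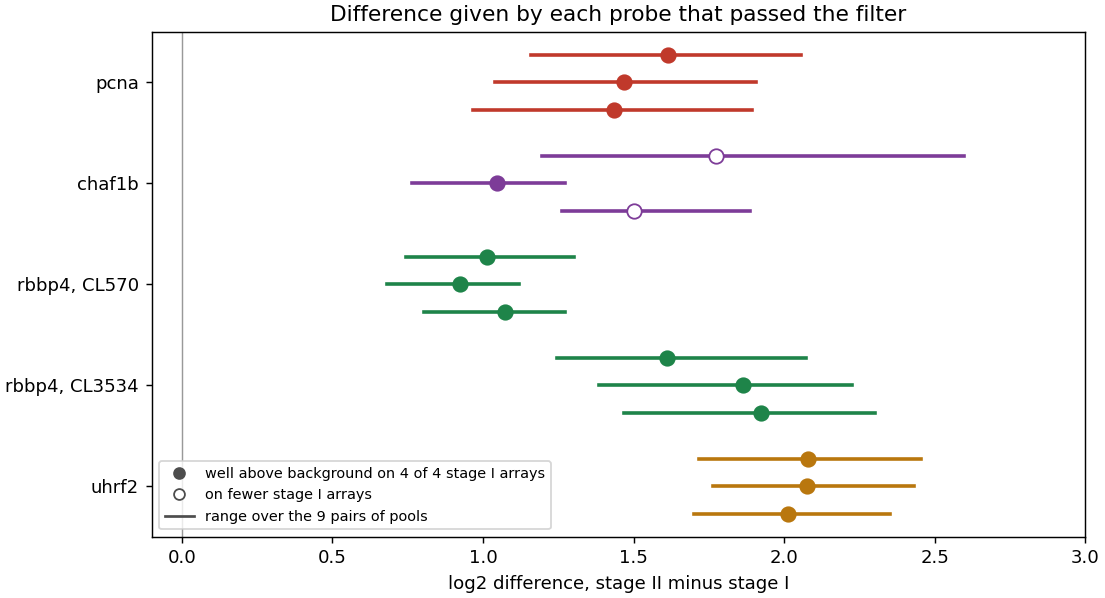
Difference of stage II minus stage I on the log2 scale (horizontal axis) for each of the 15 probes that passed the filter, grouped by gene and, for rbbp4, by contig. Points are means and lines span the 9 pairs of pools, and open points mark the 2 chaf1b probes that were not well above background on every stage I array. The probes of uhrf2 lie within 0.07 of each other and those of chaf1b within 0.73.

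**Figure D3:**
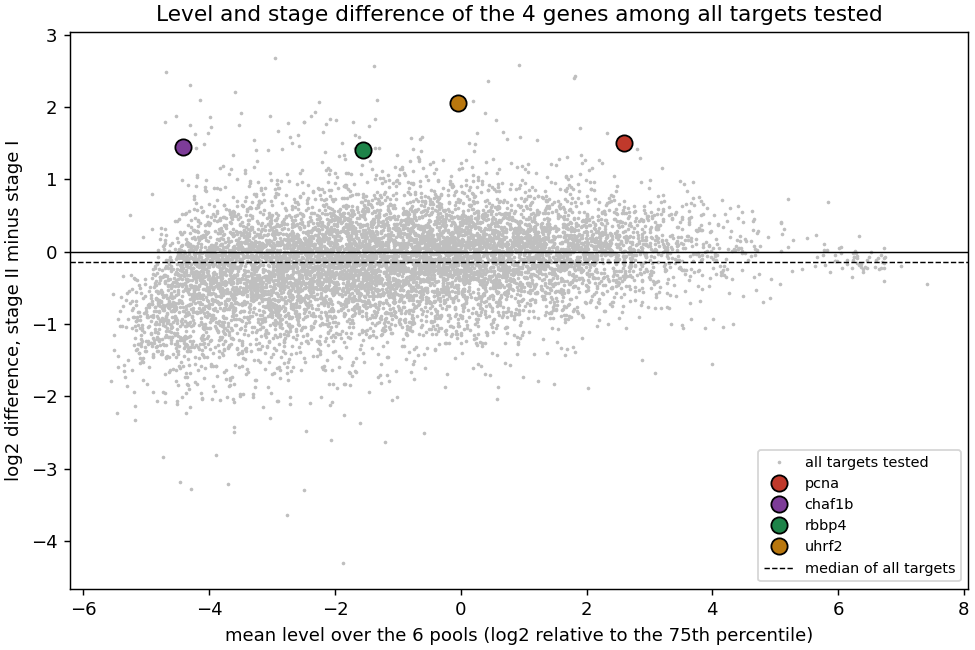
Difference of stage II minus stage I (vertical axis, log2) against the mean level over the 6 pools (horizontal axis, log2 relative to the 75th percentile) for all 9019 genes or targets tested in grey, with the 4 genes in colour. The genes lie along the upper edge of the cloud, from chaf1b among the dim targets to pcna among the bright ones, and the dashed line marks the median at −0.14.

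Within a stage, the same pool stood highest for each of the 4 genes. Pool 1 of stage II was the highest of its stage for all 4 genes, on average 0.22 above the stage mean, while pools 2 and 3 lay at −0.05 and −0.17. Among the stage I pools, pool 3 was the highest for all 4 genes, on average 0.19 above the stage mean, and pools 1 and 2 lay at −0.05 and −0.14. These shifts were small beside the differences between the stages. The place of stage II pool 1 was not particular to the 4 genes, and the share of either order over all targets was not counted. Stage II pool 1 was also the highest of its stage for most other pathway genes given below, such as mcm3 and rfc3, but not for chrac1. Among those pathway genes, stage I pool 3 was the highest of its stage only for mcm3, pold3, fen1, dtymk, slbp and eed. For the rest, such as rfc3, it was not. The array of stage II pool 1 was also the one with the lowest share of spots well above background, and its part in the level of these genes was not tested. Without that pool, the difference was 1.35 for pcna, 1.34 for chaf1b, 1.32 for rbbp4 and 1.94 for uhrf2.

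The spread between pools was at or above the median target. The SD of pcna, 0.29 at stage II and 0.17 at stage I, compared with medians over all targets of 0.14 at stage II and 0.11 at stage I. That of chaf1b, 0.17 at stage II and 0.27 at stage I, was the widest of the 4 genes among the stage I pools. For rbbp4 the SD was 0.14 at stage II and 0.19 at stage I, and for uhrf2 it was 0.22 at stage II and 0.12 at stage I.

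In a test between the plates, none of the 4 genes passed the threshold. The genes were not chosen on the plates, but the plates partly coincided with the stages on which they were chosen. Only pool 3 of either stage was run on both plates, so a small plate difference could be missed. Pools 1 and 2 also entered the fit, as pools were random blocks in it. Its estimates can therefore differ from the plate differences of pool 3 alone. Plate 37 held 3 of the 4 stage II arrays and 1 stage I array, and plate 36 held the reverse, so stage and plate coincided for pools 1 and 2 and only pool 3 separates them. By limma, fitted to stage plus plate with pools as random blocks, 8 of 8994 targets (0.0889%) differed between the plates at an adjusted p below 0.05, and 674 (7.49%) at an unadjusted p below 0.05. Of the 4 genes, 0 did so by either measure, but after quantile normalization uhrf2 had an unadjusted p of 0.0397 in limma (difference −0.19, adjusted p = 0.408). Plate 37 minus plate 36 was −0.004 ± 0.094 (SE) for pcna, with an adjusted p of 0.999 in limma. It was 0.21 ± 0.12 for chaf1b (limma adjusted p = 0.761), −0.06 ± 0.08 for rbbp4 (limma adjusted p = 0.971) and −0.15 ± 0.09 for uhrf2 (limma adjusted p = 0.754).

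The pool that was hybridised on both plates gave the readings themselves. On plates 37 and 36, pool 3 of stage II read 3.02 and 3.15 for pcna, −3.83 and −3.74 for chaf1b, −1.06 and −0.85 for rbbp4, and 0.66 and 0.86 for uhrf2. On the same plates, pool 3 of stage I read 2.03 and 2.02 for pcna, −4.66 and −5.12 for chaf1b, −2.03 and −2.04 for rbbp4, and −1.07 and −0.87 for uhrf2. The widest gap between plates, 0.47, was that of chaf1b at stage I, where its probes were near background. Stage II minus stage I taken within plate 36 and within plate 37 was 1.31 and 1.29 for pcna, 1.47 and 0.95 for chaf1b, 1.40 and 1.14 for rbbp4, and 1.91 and 2.01 for uhrf2. The higher stage was therefore stage II on each plate for all 4 genes.

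**Figure D4:**
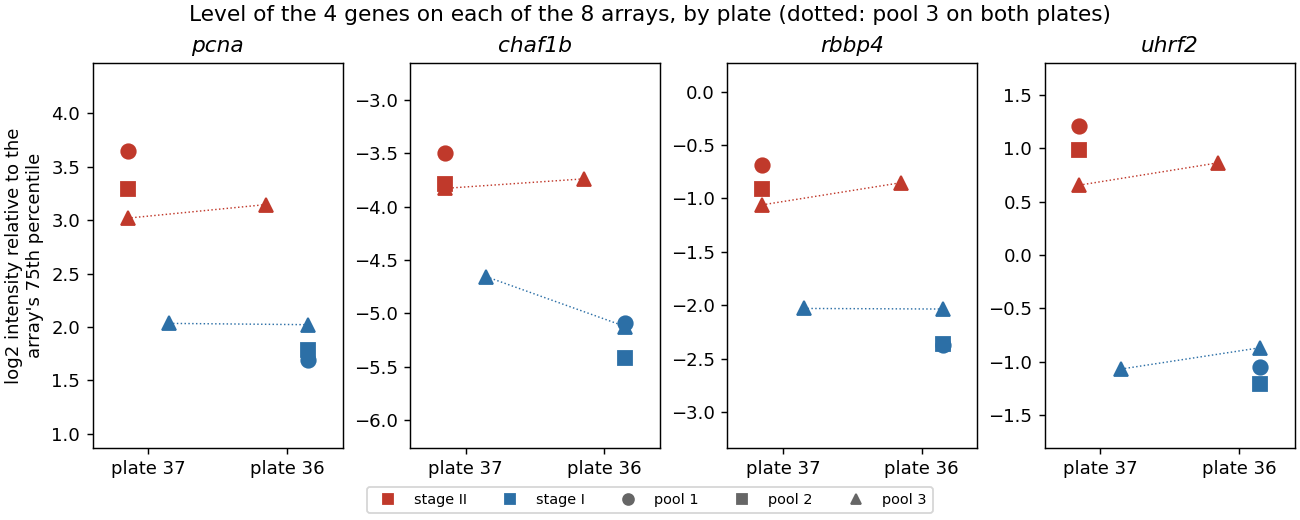
Level of the 4 genes on each of the 8 arrays (vertical axis, log2 relative to the 75th percentile), by plate and with stage II left of stage I on each plate. Dotted lines join pool 3 on both plates, and the widest step, 0.47, is that of chaf1b at stage I.

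Other genes of the replication pathway that the study's list names were also mostly higher at stage II. Of 61 symbols sought in 5 lists, 20 could be tested, of which 18 passed the limma threshold as higher and 1 as lower at stage II, beside 1.72% and 6.41% of all targets. Their median difference was 1.22, beside −0.14 over all targets. These symbols are known only because the study listed their targets as changed on these arrays, so the counts are not independent evidence of direction, and genes that did not change could hardly enter them.

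At the replication fork, 4 of 28 symbols were found and all 4 were called higher. These were mcm3, a subunit of the replicative helicase, at 1.26, pold3, an accessory subunit of DNA polymerase delta, at 1.26, rfc3, a subunit of the loader that places Pcna on DNA, at 1.17, and fen1, the nuclease that trims Okazaki fragments on Pcna, at 1.27. The 4 genes covered a narrow range, whose lower end was limited by their choice from the study's list of changed genes. In the main analysis each lay below pcna itself at 1.51, a gap that was not tested. The level of rfc3 was 1.59, 1.42 and 1.43 in pools 1, 2 and 3 of stage II, against 0.39, 0.28 and 0.25 in pools 1, 2 and 3 of stage I, with no overlap.

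Among 6 genes of entry into S phase, 3 were found and 2 called higher, the cyclin ccne2 at 1.03 and lin52, a subunit of the complex that times cell cycle genes, at 1.28. The cyclin ccnd2 had a difference of 0.99, or 1.99-fold, and did not reach the fold threshold. For nucleotide supply, 6 of 10 symbols were found and 5 were called higher. They were tyms, thymidylate synthase, at 1.20, dtymk, thymidylate kinase, at 1.23, cad, the enzyme that starts pyrimidine synthesis, at 1.37, shmt1, a folate enzyme, at 1.16, and the nucleoside diphosphate kinase nme3 at 1.50. The related kinase nme1 was called lower, but its 1 probe was not well above background on any of the 4 stage II arrays. In the mean of the 3 pools, it was at least 1.22-fold lower at stage II than at stage I. This bound sets the stage II side to the dimmest signal well above background on each array, or to the probe's own signal if that was higher. For stage II pool 1 that limit was high (273.1, with a 75th percentile of 3245) and lay above the nme1 level of every stage I pool. The bound thus gives no direction for that pool. The limma adjusted p of 0.00272 belongs to the values without the bound, and the bound itself was not tested. In its gene ontology analysis the study prints nme1 as upregulated, the reverse direction.

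Among 12 genes of histone supply, chromatin assembly and remodelling, 6 were found, 5 could be tested and all 5 were called higher. The histone chaperone asf1b, which hands histones to chromatin assembly factor 1, differed by 1.61. Its level was −0.64, −1.05 and −0.96 in pools 1, 2 and 3 of stage II, against −2.46, −2.57 and −2.46 in pools 1, 2 and 3 of stage I. The other 4 were slbp, which binds histone mRNA, at 1.21, eed, a Polycomb subunit that works with Rbbp4, at 1.43, and the remodelling subunits chrac1 at 1.14 and smarcc2 at 1.13. The symbols uhrf1 and chaf1a, the large subunit gene of chromatin assembly factor 1, were not found in the study's gene list. Whether the target named uhrf2 stands for uhrf1 was not settled. Of 5 genes of replication stress and repair, 2 were found and both were called higher, rad9b at 1.28 and nsmce2 at 1.12.

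**Figure D5:**
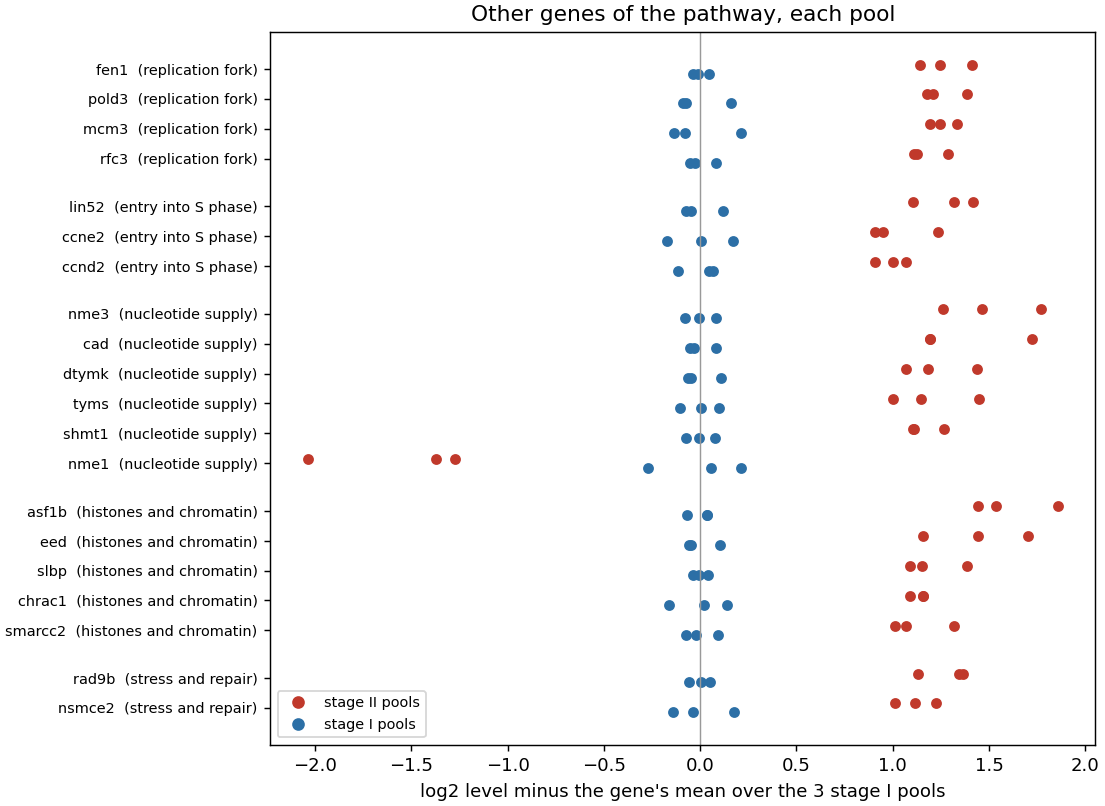
Level of the 20 pathway genes tested in each pool, relative to the mean of the gene over the stage I pools (horizontal axis, log2), with stage II pools drawn above stage I pools on each line. Stage II pools lie to the right for 19 genes and to the left for nme1, whose stage II values were not well above background.

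The genes whose profile over the 6 pools was closest to the 4 genes were sought by the root mean square distance of mean-centred levels over the 6 pools. This distance is set mostly by how close the stage differences of 2 genes are, which are the values the genes were chosen on, so it is no separate trait. The median distance of all targets from pcna was 0.86. For pcna the nearest named targets were eed at 0.07, rbbp4 at 0.10 and aurkb, a mitotic kinase, at 0.11. For chaf1b they were rbbp4 at 0.10, anln, which acts in cell division, at 0.12 and aurkb at 0.14. For rbbp4 they were pold3 at 0.08, mcm3 at 0.09 and chaf1b at 0.10. For uhrf2, whose stage difference was larger and whose distance from the other 3 genes was 0.29 to 0.34, they were the spindle gene aspm at 0.08 and 0.13 in its separate targets and the kinetochore gene spc25 at 0.11. Most targets carry no gene name here, and 0 to 5 unnamed ones were nearer than the named ones given.

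Genes that mark other cells of the testis differed between the stages beside these genes. These markers too have symbols only because the study listed their targets as changed, so their calls were fixed by that choice. Of 4 markers of germ cells entering meiosis, all 4 were called higher at stage II (1.72% of all targets were), namely dmc1, the meiotic recombinase, by 1.71, the synaptonemal complex genes sycp2 by 1.31 and syce1 by 1.83, and hsf2bp by 1.80. Their summed level, on a linear scale relative to the 75th percentile, was 10.5 to 14.8 in stage II pools and 4.10 to 4.67 in stage I pools. The Sertoli cell gene amh was called lower (6.41% of all targets were), with a linear level of 0.499 to 0.721 in stage II pools and 1.19 to 1.71 in stage I pools. Of the 4 matrix genes of somatic cells, 3 were called lower (lox, mgp and thbs1), and ogn was lower by 1.66 on the log2 scale without passing the adjusted p. Their summed level was 0.853 to 0.898 in stage II pools and 3.38 to 3.67 in stage I pools. This sum was set mostly by mgp, with a mean stage I level of 1.58 on the log2 scale, against −1.71 for lox, −2.93 for ogn and −4.48 for thbs1. The sum of the germ cell markers was set mostly by dmc1 and sycp2. All 9 markers were, by at least 1 probe, well above background on 4 of 4 stage I arrays, and on the stage II arrays ogn was so on 3 and thbs1 on 1. The part of these shifts in the levels of pcna, chaf1b, rbbp4 and uhrf2 was not tested.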

How the data were processed

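Testis RNA of 3 pools per stage was labelled with Cy3 and hybridised on 8 one-colour Agilent arrays. The scanner files deposited by the authors hold a processed intensity for each spot, from which Agilent Feature Extraction (version 10.4 per the labels, 10.7.3.1 per the file headers) had subtracted the background, with no scaling across arrays. The log2 values that the authors deposited beside them were compared with these files and are the background-subtracted signals of single spots, unscaled. Names of genes came from the study's list.

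Following the study's methods, the processed intensity was set to log2 and each array was shifted by its own 75th percentile. Control spots and outlier spots were dropped, then spots were averaged per probe and probes per gene. Probes had to exceed background clearly throughout stage II or throughout stage I (18278 of 24200 probes, 75.5%). A probe with duplicate spots counted as doing so on an array if either spot was flagged well above background. Targets that shared 1 entry of the study's list were merged, those of a symbol with separate entries were not, and both arrays of pool 3 were averaged. Stages were compared by limma 3.58.1 in R 4.3.3 with Benjamini-Hochberg adjustment, called at an adjusted p below 0.01 and a fold change over 2. On simulated data, the stage fit, the plate fit and the search for near profiles were tested. The scaling, the filter and the averaging of spots and probes were not. An exact permutation test of 3 against 3 pools cannot go below p = 0.1. The p-values between stages rest on the spread between pools, moderated by limma over all targets. Those between plates rest on the spread between arrays, with pools as random blocks.

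The members, gene lists and tests were chosen with earlier results of these data known. The text names the 4 genes with all their probes, the tested genes of the lists, and the 3 named targets nearest to each gene in profile. Alternatives were the background correction, normalization, dim-probe filter, probe summary, plate, pairing and the leaving out of each pool. Per-array text files that repeat scanner values were not used, and 0 columns came from outside the series.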

Additional observations from a re-analysis of the deposited data

How the results depend on the processing

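Stage II was higher than stage I for all 4 genes under every alternative run. The differences were 1.29 to 1.96 for pcna, 0.32 to 1.94 for chaf1b, 1.00 to 1.88 for rbbp4 and 1.89 to 2.51 for uhrf2. Of 74 values, 60 moved by less than the SD between pools, but this count was partly fixed in advance. With 1 of 3 pools left out no value can move that far, and some probe filters kept the same probes of a gene. With normexp the difference was 0.32 for chaf1b and 1.00 for rbbp4. It was 1.71 for chaf1b after quantile normalization, 1.13 with the median over its probes, 1.05 with probes well above background on every array and 0.95 within plate 37. For rbbp4 it was 1.13 with no filter on dim probes, 1.14 within plate 37, and 1.00 and 1.80 for its contigs SeabassC-CL570Contig1 and SeabassC-CL3534Contig1 alone. In the deposited values without scaling, the differences were 1.96 for pcna, 1.94 for chaf1b, 1.88 for rbbp4 and 2.51 for uhrf2. Leaving out each pool in turn gave 1.35 to 1.63 for pcna, 1.30 to 1.56 for chaf1b, 1.32 to 1.51 for rbbp4 and 1.94 to 2.17 for uhrf2. The cause of these shifts was not tested. The 733 targets called became 138 with normexp, 456 with no filter, 433 with probes well above background on every array, 474 in deposited values shifted to the 75th percentile (an alternative chosen after seeing the data, as were the within-plate values and those between contigs), 83 by the methods' t-test after Benjamini-Hochberg, and 268 to 916 with 1 pool left out. The fewest were 268 without stage I pool 2 and 385 without stage I pool 1. Pool numbers did not pair the samples (correlation of deviations for pools 1, 2 and 3 −0.004, −0.003 and −0.06), and with the pool number as a replicate block 503 targets were called, while the differences of the 4 genes cannot change in this balanced block. The plate difference changed sign without the random block for pcna (0.19), rbbp4 (0.10) and uhrf2 (0.028), after quantile normalization for chaf1b (−0.041) and with normexp for rbbp4 (0.074), while 0 of the 4 genes passed an adjusted p of 0.05 under any of these fits. After quantile normalization limma gave uhrf2 an adjusted p of 0.408 and an unadjusted one of 0.0397. In pool 3 alone it was −0.089 at stage II and 0.47 at stage I for chaf1b. The range between probes of a gene was 1.49 for rbbp4 with no filter, and with normexp 0.40 for pcna, 0.25 for chaf1b, 0.35 for rbbp4 and 0.25 for uhrf2. The difference between the rbbp4 contigs, 0.80, was 0.047 with normexp, where the stages overlapped, and 0.97 after quantile normalization. Not all chaf1b probes were well above background on every stage I array, and no probe of the rbbp4 target cDN26P0004K18.F.ab1 passed the filter.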
